A study of Zea mays with 9 samples.

Results

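The genes mn1 (miniature1, a cell wall invertase, identifier Zm00001d003776) and sweet4c (a hexose transporter, identifier Zm00001d015912) were followed in maize endosperm at 19 days after pollination (DAP). They were taken by identifier and are 2 of the 46430 gene identifiers in the count files and 2 of the 23529 genes with enough counts to be tested. The files themselves pair no identifier with a gene name. The comparison covers thk1_iso17 (-/-) endosperm, thk1_iso15 (-/-) endosperm and wild-type (WT) endosperm, with 3 libraries each. All 9 libraries carry the strain label B73, an inbred line, and came from field-grown plants that were selfed. No label says how many kernels or plants went into a library, or whether the mutants and the WT were siblings, so that line or plant differences shared by the mutants cannot be told apart from the mutation. The p-values below measure only the spread between these libraries.

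In the maize kernel, sugar reaches the endosperm from the mother plant through a thin band of specialised cells at the kernel base, the basal endosperm transfer layer. The invertase encoded by mn1 is bound to the cell wall there and cleaves incoming sucrose into glucose and fructose, and the membrane transporter encoded by sweet4c carries hexoses into the endosperm. Maize kernels that lack either gene fill poorly and stay small. The gene thk1 (thick aleurone1) encodes NOT1, a scaffold of the CCR4-NOT complex that controls messenger RNA levels, and its mutants take their name from a thickened aleurone, the surface layer of the endosperm.

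The libraries held between 21871601 and 76651742 counts in genes. One library, thk1_iso17 replicate 3, had 8.27% of its entries not aligned, against 1.62% to 2.54% in the other 8. Across all genes tested, its log2 levels correlated at 0.940 to 0.961 with the other thk1_iso17 libraries and at 0.936 to 0.948 with the WT libraries. With WT, thk1_iso15 replicate 3 had nearly the same values (0.935 to 0.948). The other mutant libraries were lower, from 0.919 to 0.927 in thk1_iso15 replicate 2 up to 0.9335 to 0.943 in thk1_iso17 replicate 1. Genes are not independent replicates. Fold changes that rest on thk1_iso17 replicate 3 are given with and without it. Levels are in CPM, a count relative to the size of its library, after TMM scaling, which sets the bulk of genes equal between libraries. RNA was taken from dissected endosperm, so that more cells of the basal layer and more RNA per cell cannot be told apart. Marker genes of the basal layer, of other cell types and of sugar use were listed by symbol, with mn1 and sweet4c among them. Of these 86 symbols 0 could be paired with an identifier of the count files, and the other listed genes are not analysed here. Neither the tissue label nor the amount of basal tissue in a library was therefore checked.

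The invertase gene mn1 was higher in 5 of the 6 mutant libraries than in every WT library, a share not counted over all genes. In the fit to all 9 libraries, with its shared estimate of spread, mn1 passed in thk1_iso17 but not in thk1_iso15. With only the 2 groups compared in the fit this turned round (edgeR adjusted p = 0.0667 in thk1_iso17 and 0.00868 in thk1_iso15). With a replicate block it passed in both (edgeR adjusted p = 0.0388 and 0.0265). In thk1_iso17, replicates 1, 2 and 3 had 14.9, 83.4 and 0.772 CPM of mn1. In thk1_iso15 they had 20.6, 27.1 and 7.24 CPM. In WT they had 2.60, 2.40 and 0.666 CPM. The 3 thk1_iso15 libraries lay above all WT libraries, as in 19.6% of genes tested. For mn1 the lowest of them was 2.78 times the highest WT library. In thk1_iso17 the groups overlapped, because replicate 3 lay within the WT range while the other 2 libraries lay above it.

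**Figure D1:**
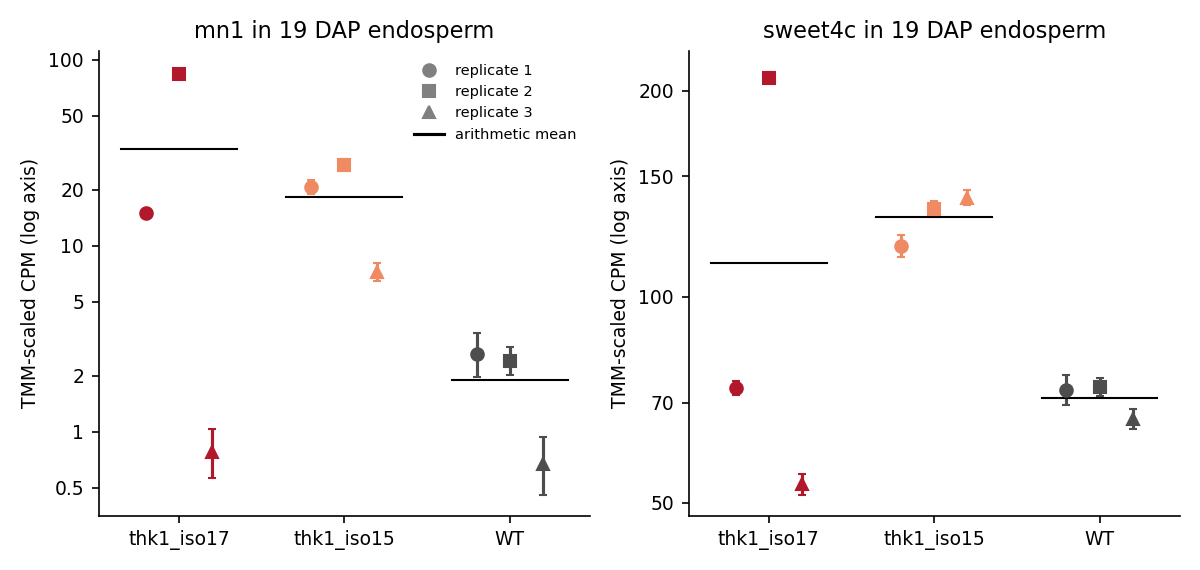
Level of mn1 (left) and sweet4c (right) in each library, as TMM-scaled CPM on log axes that do not start at 0, for thk1_iso17, thk1_iso15 and WT. Symbols give the replicate number, bars are exact 95% Poisson intervals that cover counting error only, and lines are arithmetic means of 3 libraries. For mn1, thk1_iso17 replicate 3 sits at 0.772 CPM among the WT libraries and replicate 2 at 83.4 CPM above all others.

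These levels rest on few reads in the low libraries. The mn1 gene had 1340, 4285 and 45 counts in replicates 1, 2 and 3 of thk1_iso17, 496, 1133 and 328 counts in thk1_iso15, and 54, 136 and 33 counts in WT. The exact 95% Poisson interval was 0.563 to 1.03 CPM in thk1_iso17 replicate 3 and 0.458 to 0.935 CPM in WT replicate 3. The intervals of these 2 libraries overlapped; they cover counting error alone. The intervals of the other 5 mutant libraries, the lowest of which began at 6.47 CPM, lay above the highest WT bound of 3.40 CPM.

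Mean mn1 was 33.0 ± 44.2 CPM in thk1_iso17, 18.3 ± 10.2 CPM in thk1_iso15 and 1.89 ± 1.06 CPM in WT (SD, n = 3 each). In thk1_iso17 the log2 fold change over WT was 4.16 (SE 1.23, 95% interval 1.47 to 6.86, edgeR adjusted p = 0.0449), or 17.9-fold. In this comparison 14.2% of all genes tested were called, 7.96% as higher, which is 1873 higher and 1479 lower genes; on total counts, with no scaling factors, 5717 were higher and 336 lower. By the TMM fit mn1 was 1 of the 2 genes described here to be called. A log2 fold change of at least that size was reached by 0.744% of genes tested. In thk1_iso15 the log2 fold change of mn1 was 3.32 (SE 1.19, 95% interval 0.69 to 5.94, edgeR adjusted p = 0.0835), or 9.96-fold, and it did not pass the threshold of 0.05. There 0 of the 2 genes were called, against 15.5% of all genes tested (8.66% as higher), of which 2038 genes were higher and 1604 lower (3769 and 560 on total counts). At an unadjusted edgeR p under 0.05 there were 2 of 2, beside 32.2% of all genes tested. DESeq2 and limma voom called 0 of 2, beside 14.9% of genes with a count and 11.7% of genes tested. The absence of overlap in thk1_iso15 is shared with many genes, since 19.6% of genes tested had all 3 thk1_iso15 libraries above all 3 WT libraries.

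The mn1 call in thk1_iso17 was lost in 7 of 9 fits that left out 1 library. The size of its fold change rested most on thk1_iso17 replicate 2. Replicate 2 held 84.2% of the summed mn1 CPM of that group, at 44.1 times the WT mean. Without it the log2 fold change was 2.09 (edgeR adjusted p = 0.188). Without thk1_iso17 replicate 3 it was 4.73 (edgeR adjusted p = 0.00555). The call was also lost without thk1_iso17 replicate 1 (log2 fold change 4.51, edgeR adjusted p = 0.0725). It was lost as well without WT replicate 1, 2 or 3 (4.40, 4.46 and 3.72, edgeR adjusted p = 0.113, 0.108 and 0.150) and without thk1_iso15 replicate 1 or 2 (4.16 in both, edgeR adjusted p = 0.0589 and 0.0554), which enter through the shared estimate of spread. It held without thk1_iso15 replicate 3 (4.17, edgeR adjusted p = 0.0494). By limma voom the log2 fold change was 2.69 (adjusted p = 0.382), near the difference of geometric means, which was 2.62 on the log2 scale (9.86 CPM in thk1_iso17 and 1.61 CPM in WT).

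In thk1_iso15 the range of the fold with 1 library left out was narrower, and the call depended on the libraries in the fit and on the filter. Leaving out 1 library at a time gave a log2 fold change of mn1 between 2.88 and 3.70. The adjusted p fell to 0.0142 without thk1_iso17 replicate 3 and to 0.0372 without thk1_iso17 replicate 2 (edgeR). With thk1_iso15 and WT alone in the fit it was 0.00868, at a log2 fold change of 3.31 (edgeR). With all 9 libraries but no filter on low counts it was 0.0282 (log2 fold change 3.31, edgeR). In the other 7 fits with 1 library left out, the edgeR adjusted p ran from 0.0761 to 0.224 and mn1 did not pass.

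Over both alleles the log2 fold change of mn1 was 3.74 (SE 1.15, 95% interval 1.21 to 6.27, edgeR adjusted p = 0.0408), or 13.4-fold. Both comparisons of a single allele use the same 3 WT libraries. In this joint comparison 21.0% of genes were called, 11.0% as higher, and 1 of the 2 genes was called. That is 2586 higher and 2357 lower genes, against 6002 and 669 on total counts. The mn1 call was lost without WT replicate 1, 2 or 3 (log2 fold change 3.97, 4.04 and 3.30, edgeR adjusted p = 0.107, 0.105 and 0.147). It was lost without thk1_iso15 replicate 1 or 2 (3.69 and 3.54, edgeR adjusted p = 0.0628 and 0.0663) and without thk1_iso17 replicate 1 or 2 (3.91 and 2.70, edgeR adjusted p = 0.0518 and 0.0525). Without thk1_iso17 replicate 3 the log2 fold change was 4.02 (edgeR adjusted p = 0.00435), and without thk1_iso15 replicate 3 it was 3.93 (edgeR adjusted p = 0.0406), so that the estimate stayed above 0 in all 9 of these fits and the call held in 2.

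The hexose transporter gene sweet4c did not pass the test in either allele, although its thk1_iso15 libraries all lay above WT. Of all genes tested, 19.6% had their thk1_iso15 libraries all above WT. In thk1_iso17, replicates 1, 2 and 3 had 73.7, 209 and 53.3 CPM of sweet4c. In thk1_iso15 they had 119, 134 and 139 CPM, and in WT 73.1, 73.8 and 66.4 CPM. The lowest thk1_iso15 library was 1.61 times the highest WT library. In thk1_iso17 only replicate 2 was above all WT libraries, replicate 1 lay within their range and replicate 3 was below them.

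Mean sweet4c was 112 ± 84.6 CPM in thk1_iso17, 131 ± 10.9 CPM in thk1_iso15 and 71.1 ± 4.10 CPM in WT (SD, n = 3 each). The log2 fold change in thk1_iso17 was 0.66 (SE 0.39, 95% interval -0.20 to 1.51, edgeR adjusted p = 0.280), or 1.57-fold. In thk1_iso15 it was 0.88 (SE 0.39, 95% interval 0.020 to 1.74, edgeR adjusted p = 0.147), or 1.84-fold, and over both alleles it was 0.77 (SE 0.35, 95% interval 0.0034 to 1.53, edgeR adjusted p = 0.137). The intervals are those of single genes and are not adjusted for the number of genes. Sizes of this order were common, as 19.5%, 14.1% and 15.9% of genes tested had at least the log2 fold change of sweet4c in thk1_iso17, thk1_iso15 and both alleles against WT.

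One library set the direction of sweet4c in thk1_iso17. Without replicate 2 the log2 fold change was -0.17 (edgeR adjusted p = 0.573), and without replicate 3 it was 0.98 (edgeR adjusted p = 0.0623). In thk1_iso15 the change passed when thk1_iso17 replicate 2 was left out of the fit (log2 fold change 0.88, edgeR adjusted p = 0.00662), and with only thk1_iso15 and WT in the fit (0.88, edgeR adjusted p = 0.00466). Over both alleles it passed without thk1_iso17 replicate 3 (0.93, edgeR adjusted p = 0.0323), and without thk1_iso17 replicate 2 it was 0.36 (edgeR adjusted p = 0.0931).

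The scaling of libraries also mattered for sweet4c. Per total gene counts, with no scaling factors, the mutants and the WT no longer overlapped, the lowest mutant library having 64.6 and the highest WT library 63.1 CPM, and 24.7% of genes tested did the same. With TMM factors 4 of the 6 mutant libraries exceeded WT. On total counts sweet4c passed in thk1_iso17 (log2 fold change 1.01, edgeR adjusted p = 0.0482), in thk1_iso15 (1.14, edgeR adjusted p = 0.0382) and over both (1.07, edgeR adjusted p = 0.0232). On that scale the median log2 fold change of all genes was itself 0.43, 0.27 and 0.36 in these comparisons, against 0.025, 0.012 and 0.023 with TMM.

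**Figure D2:**
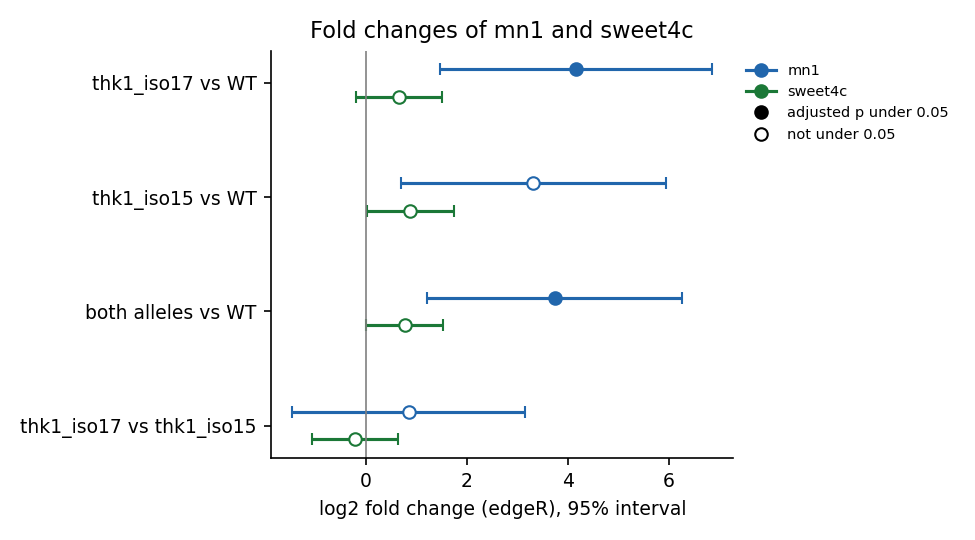
Log2 fold changes of mn1 and sweet4c in 4 comparisons, with 95% intervals from the edgeR fit to all 9 libraries. Filled points have an adjusted p under 0.05, which holds for mn1 in thk1_iso17 (4.16) and over both alleles (3.74), while the sweet4c estimates lie between -0.23 and 0.88 and are open.

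The alleles were not shown to differ in either gene. The log2 difference of thk1_iso17 over thk1_iso15 was 0.85 for mn1 (SE 1.05, 95% interval -1.46 to 3.16, edgeR adjusted p = 0.918). For sweet4c it was -0.23 (SE 0.39, 95% interval -1.08 to 0.63, edgeR adjusted p = 0.948). In this comparison 0.111% of genes tested were called, and 0 of the 2 genes. At an unadjusted edgeR p under 0.05 there were 0 of 2, beside 6.88% of genes tested. DESeq2 and limma voom called 0 of 2, beside 0.583% of genes with a count and 0.115% of genes tested. The intervals are wide, and for mn1 they leave room for 0.363 to 8.91 times the thk1_iso15 level. The sign for mn1 turned negative without thk1_iso17 replicate 2, at -1.22 on the log2 scale (edgeR adjusted p = 0.812). Without thk1_iso17 replicate 3 the log2 difference for mn1 was 1.42 (edgeR adjusted p = 0.603). The sign for sweet4c turned positive without thk1_iso17 replicate 1 or 3, at 0.0034 and 0.11 (edgeR adjusted p = 0.999 and 0.957). Without thk1_iso17 replicate 2 it was -1.05 (unadjusted p = 0.000109, edgeR adjusted p = 0.0901). Ordered by arithmetic mean, thk1_iso17, thk1_iso15 and WT followed each other for mn1, and thk1_iso15, thk1_iso17 and WT for sweet4c. For mn1 the order of the alleles turned round by median (14.9 CPM in thk1_iso17 and 20.6 CPM in thk1_iso15) and by geometric mean (9.86 and 15.9 CPM). The neighbours thk1_iso17 and thk1_iso15 did not differ beyond their spread for either gene, and for sweet4c neither did thk1_iso17 and WT. For mn1 the neighbours thk1_iso15 and WT had no overlapping libraries but missed the threshold.

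Set against each other within a library, the counts of the pair need no scaling. For every 100 sweet4c counts, thk1_iso17 replicates 1, 2 and 3 had 20.2, 39.9 and 1.45 mn1 counts. In thk1_iso15 there were 17.4, 20.2 and 5.19 mn1 counts, and in WT 3.56, 3.25 and 1.0. These ratios are not per length and compare libraries, not the levels of the genes with each other. All 3 thk1_iso15 libraries and 2 of the 3 thk1_iso17 libraries exceeded all WT libraries. The mean log2 ratio was -3.24 ± 2.52 in thk1_iso17, -3.03 ± 1.07 in thk1_iso15 and -5.45 ± 1.01 in WT (SD, n = 3 each). It was thus 2.21 higher in thk1_iso17 and 2.42 higher in thk1_iso15 than in WT, differences that are given without a test. Without thk1_iso17 replicate 3 the difference was 3.64 in thk1_iso17, and without its replicate 2 it was 1.25.

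**Figure D3:**
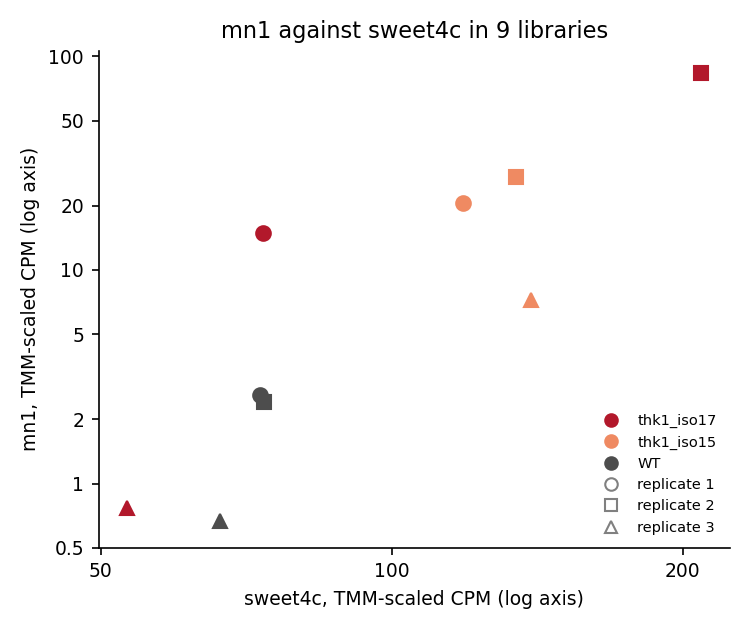
Level of mn1 against that of sweet4c in the 9 libraries, both as TMM-scaled CPM on log axes. The library thk1_iso17 replicate 2 is highest in both genes (83.4 and 209 CPM), thk1_iso17 replicate 3 is lowest in sweet4c (53.3 CPM) and next to WT replicate 3 in mn1 (0.772 and 0.666 CPM).

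Both genes were highest in thk1_iso17 replicate 2, and among the mutants both were lowest in thk1_iso17 replicate 3. Within thk1_iso15 they did not run together, since replicate 3 had the least mn1 (7.24 CPM) and the most sweet4c (139 CPM). The mn1 gene was lowest in replicate 3 of each genotype, as were 8.76% of genes tested. Within a replicate number, mn1 in thk1_iso17 was 5.72, 34.8 and 1.16 times WT in replicates 1, 2 and 3, and in thk1_iso15 it was 7.93, 11.3 and 10.9 times WT. For sweet4c these values were 1.01, 2.83 and 0.803 in thk1_iso17 and 1.62, 1.82 and 2.1 in thk1_iso15. The folds of both genes were thus close to each other across the numbers in thk1_iso15 and far apart in thk1_iso17. The labels do not say that a number marks a shared batch.

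The spread of mn1 between replicates was wide in every genotype. The highest library was 108 times the lowest in thk1_iso17, 3.75 times in thk1_iso15 and 3.91 times in WT. Ratios at least as large were seen in 0.901%, 9.77% and 8.19% of genes tested, and the median gene had 1.47, 1.46 and 1.38. Without replicate 3 the mn1 ratio in thk1_iso17 was 5.60, reached by 1.76% of genes, with a median of 1.20. For sweet4c the ratio was 3.92 in thk1_iso17, where 7.80% of genes had as much, and 2.84 without replicate 3, where 5.08% had as much. It was 1.18 in thk1_iso15 and 1.11 in WT, where 83.1% and 89.6% of genes had at least as much, so that sweet4c was among the steadier genes there.

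The gene most like mn1 over the 9 libraries was Zm00001d007444, with a Pearson r of 0.991 on log2 CPM among 14663 genes that reached a mean of 5 CPM in a genotype. It had 4.58, 19.0 and 0.429 CPM in thk1_iso17 replicates 1, 2 and 3, 4.33, 9.61 and 2.1 CPM in thk1_iso15, and 1.3, 1.04 and 0.283 CPM in WT. Its libraries therefore stood in nearly the same places as those of mn1, with thk1_iso17 replicate 3 among the WT libraries. An r of at least 0.9 with mn1 was reached by 171 genes. The gene most like sweet4c was Zm00001d038165 (r = 0.951), with 52.5, 70.4 and 40.0 CPM in thk1_iso17, 52.2, 60.4 and 62.9 CPM in thk1_iso15, and 48.9, 48.0 and 47.1 CPM in WT. For sweet4c 11 genes reached an r of 0.9. The r between mn1 and sweet4c was 0.864. The points share genotypes and libraries, and a gene with the same difference between genotypes will have a high r.

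Genes with neighbouring identifiers, like most genes tested, were mostly not called by the edgeR test. Of 20 tested genes within 25 numbers of mn1, 3 were called higher and 0 lower in thk1_iso17, and 3 higher and 1 lower in thk1_iso15. Their median log2 fold changes were 0.43 and 0.17, against 0.025 and 0.012 for all genes. Their single values ran from -1.39 to 3.19 in thk1_iso17 and from -1.74 to 2.85 in thk1_iso15. Of 12 tested genes within 25 numbers of sweet4c, 2 were called higher and 1 lower in thk1_iso17, and 1 higher and 1 lower in thk1_iso15, with medians of 0.29 and 0.11. Over all genes 14.2% and 15.5% were called (7.96% and 8.66% as higher), and with so few neighbours the shares were not tested.

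**Figure D4:**
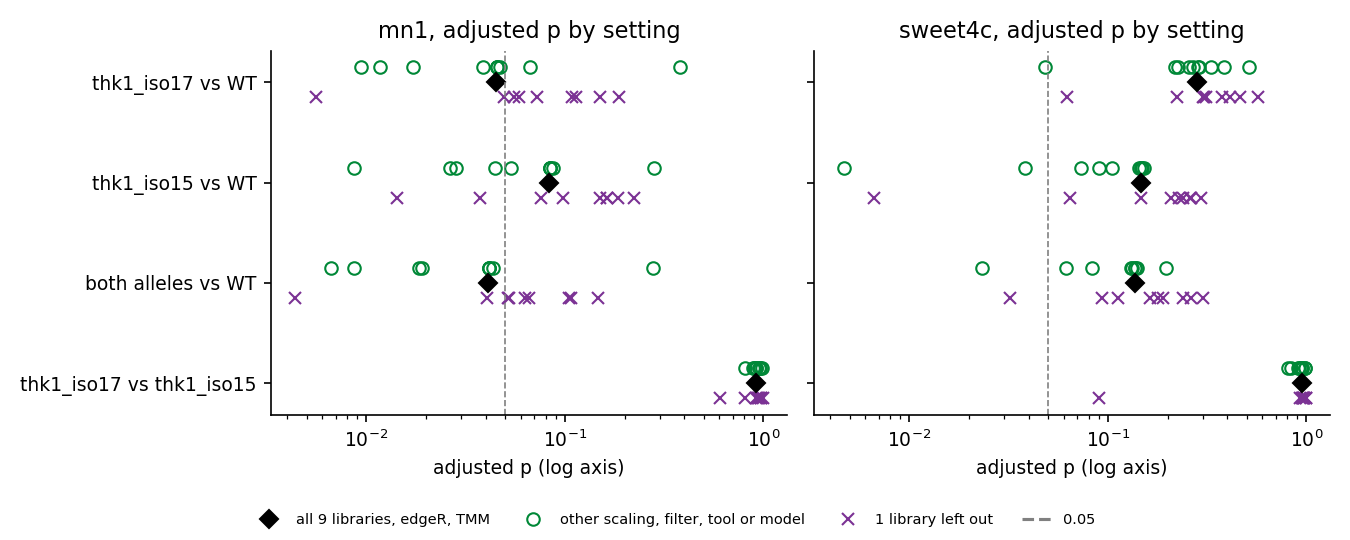
Adjusted p of mn1 (left) and sweet4c (right) in 4 comparisons on a log axis, for the edgeR fit with all 9 libraries (diamonds), for other scalings, filters, tools or models (circles) and with 1 library left out (crosses). The dashed line marks 0.05: for mn1 in thk1_iso17 the values run from 0.00555 to 0.382 across it, and for both genes between the alleles all lie above it.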

How the data were processed

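Poly(A) RNA of 19 DAP endosperm was sequenced as paired ends from TruSeq libraries, per the labels' protocols. The authors deposited unnormalised counts for each gene, 1 library per file, with 46430 identifiers and 5 summary lines that were kept out of all totals. The submitters' processing notes name the build B73 RefGen_v4 and the tools HTSeq 0.11.1, StringTie 1.3.6, SAMtools 1.9 and HISAT2 2.1.0. For annotation, settings and strand the processing is not given in the sources used here, so reads shared with gene copies or antisense genes are uncertain. A RefSeq gene table of Zm-B73-REFERENCE-NAM-5.0 named 0 of 44146 nuclear gene models. Genes take between 52.9% and 66.5% of a library's entries, and no replicate pair agreed within sampling noise (chi-square per degree of freedom 38.2 to 151).

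The edgeR 4.0.16 package in R 4.3.3 was used with filterByExpr (23529 genes), TMM, and 1 quasi-likelihood fit of 3 groups and 9 libraries. Calls were made at 0.05 after Benjamini-Hochberg adjustment across every gene tested. Each SE was obtained from the log2 fold change and its F statistic. The procedure was also run on simulated counts in which a changed gene had the same fold in all 6 mutant libraries. That run does not cover a fold carried by a single library. Alternatives were RLE, upper quartile, TMM without the 100 most abundant genes, no scaling (chosen after seeing the data), DESeq2 1.42.0, voom in limma 3.58.1, no low-count filter, 1 CPM in 3 libraries, only the groups compared, a replicate block, and leaving out each library. The ratio of both genes used a pseudocount of 0.5 counts on the log2 scale, with 5 as the alternative. The gene pair, the lists and the naming rule were chosen with earlier results of these data known. The rule names the pair and, for each, the gene with the highest Pearson r over the 9 libraries (prior count 2 on the log scale, mean of at least 5 CPM in a genotype). The check of marker and sugar genes by symbol paired 0 of 86.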

Additional observations from a re-analysis of the deposited data

Results flagged for a closer look

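Among the 6 mutant libraries, mn1 in thk1_iso17 replicate 2 lay apart at 83.4 CPM. Its gap to the next library, thk1_iso15 replicate 2 at 27.1 CPM, was 0.681 of the whole range, above Dixon's 95% critical value for 6 samples. For sweet4c the same library, at 209 CPM, had a gap of 0.446 of the range and did not exceed it. About 1 in 20 groups of normally distributed values exceed that value by chance, and 4 ends of ranges were examined. The rule was applied to CPM with both alleles pooled, and gaps on the log2 scale were not examined. The values of mn1 without thk1_iso17 replicate 2 are given with the comparisons above.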

How the results depend on the processing

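The estimates of mn1 against WT kept their sign under every alternative run, and the calls did not: in thk1_iso17 mn1 passed in 8 of 10 alternatives that kept all its libraries and in 2 of 9 that left out 1 library. In thk1_iso17 the call was lost by voom (log2 fold change 2.69) and with only the 2 groups in the fit (4.17), and over both alleles by voom (3.02). In thk1_iso15 mn1 passed with no low-count filter (3.31), with only the 2 groups (3.31), with the replicate block (3.44, adjusted p = 0.0265) and on total counts (3.64), and sweet4c with only the 2 groups (0.88) and on total counts (1.14). On total counts sweet4c also passed in thk1_iso17 (1.01) and over both (1.07). Between the alleles mn1 turned to -0.66 by voom and to -0.22 with the replicate block, and the causes were not tested. With 1 library left out, mn1 ranged from 2.09 to 4.73 in thk1_iso17, 2.88 to 3.70 in thk1_iso15, 2.70 to 4.04 over both and -1.22 to 1.42 between the alleles. In the same order of comparisons, for sweet4c the ranges were -0.17 to 0.98, 0.83 to 0.95, 0.36 to 0.93 and -1.05 to 0.11. The difference in the log2 ratio ranged from 1.25 to 3.64, 1.84 to 3.04, 1.73 to 3.03 and -1.17 to 1.22. Genes called ranged from 1176 to 3946 (3352 with all libraries), 1440 to 4386 (3642), 2464 to 5876 (4943) and 21 to 72 (26). Between the alleles they were 197 by DESeq2, 75 with no filter and 17 with only the 2 groups, and in thk1_iso17 6053 on total counts (5717 higher and 336 lower). Whether replicate numbers mark a shared batch was not tested. Correlations of deviations from the group means ran from -0.11 to 0.24 for equal numbers and from -0.23 to 0.12 for unequal ones. Replicate 3 of each allele correlated best with replicate 3 of WT (0.12 in thk1_iso15, 0.13 in thk1_iso17). Not every library correlated best with its own number: thk1_iso17 replicate 3 had 0.12 with thk1_iso15 replicate 1 and 0.099 with thk1_iso15 replicate 3. The replicate block gave 3761 calls in thk1_iso17 and 3971 in thk1_iso15, and mn1 in thk1_iso17 had a log2 fold change of 3.22 under it (9.32-fold, adjusted p = 0.0388). The WT libraries had 33 to 136 mn1 counts. Their 95% Poisson intervals in replicates 1, 2 and 3 were 1.95 to 3.40, 2.01 to 2.84 and 0.458 to 0.935 CPM. The interval of replicate 3 did not overlap those of replicates 1 and 2, so the WT libraries differed by more than counting error.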
